A study of Mus musculus with 2 samples.

Results

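The mitochondrial ribosomal proteins named Mrpl (large subunit) and Mrps (small subunit) were taken from the deposited gene table as every row whose name starts with Mrpl or Mrps followed by a digit, without pseudogene names. The rule found 77 genes among 34745, with 48 named for the large subunit and 29 for the small subunit. Their messages were counted by RNA sequencing of mouse gastrocnemius, a muscle of the calf. There was 1 library from TECRLscko mice and 1 library from TECRLflox/flox mice, called the control below. TECRLscko mice carry the floxed Tecrl allele and Cre under Pax7, a transcription factor of satellite cells, the muscle stem cells. Control mice carry the floxed allele, and the labels do not say whether they also carry Cre. Cre from Pax7 acts in satellite cells and in their descendants, so muscle fibers formed by them can carry the deletion too. The labels name no injury, time point, age, sex or number of mice for either library. With 1 library in each group the variation among mice is unknown: no test was made, and each difference below is one between these 2 libraries.

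Mitochondria keep their own ribosome, which translates the few messages of the mitochondrial genome into core subunits of the respiratory chain and of ATP synthase. Its RNA comes from the mitochondrial genome, but all of its proteins are encoded in the nucleus, made in the cytosol and imported. The small subunit decodes the message, and the large subunit joins the amino acids and releases the chain through a tunnel at the inner membrane. Skeletal muscle fibers depend on this output for oxidative metabolism, and inherited defects of mitoribosomal proteins in people cause combined deficiencies of the respiratory chain.

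The TECRLscko library held 16946124 counts and the control library 19281017 counts, of which the mitochondrial genome took 23.1% and 17.0%. Tecrl itself was counted 4 times in TECRLscko and 3 times in the control, too few to check the deletion in whole muscle. All 10 markers of skeletal muscle fibers were present, with a sum of 133836 CPM (counts scaled to library size with TMM factors) in TECRLscko and 146373 CPM in the control. Of these, 7 were below the control and 3, Ttn, Myh2 and Myh1, were above it. The 7 slow fiber markers summed to 2661 CPM against 1448 CPM and all 7 were above the control. The 6 fat cell markers summed to 298 CPM against 357 CPM and all 6 were below the control. Most of the fat cell sum was Fabp4 (279 CPM against 316 CPM), and the next highest was Cfd (12.5 CPM against 27.9 CPM). The median log2 ratio of TECRLscko over control for the 6 was -0.93. All 4 macrophage markers were below the control (60.5 CPM against 75.3 CPM), while all 3 tendon markers (78.4 CPM against 50.9 CPM) and all 3 red cell markers (174 CPM against 148 CPM) were above it. Other lists were mixed. Of the satellite cell markers, Pax7 was above the control (4.59 CPM against 2.94 CPM). Myf5 (2.30 CPM against 3.24 CPM) and Calcr (1.57 CPM against 2.84 CPM) were below it. Of 4 endothelium markers 3 were below, of 3 fibroblast markers 1 was, and of 3 brown fat markers 2 were, with Ucp1 at 0 in both libraries. Among cardiomyocyte markers Nppa was at 0 in both libraries, Tnni3 was below the control (0.302 CPM against 0.557 CPM) and Myh6 above it (3.87 CPM against 2.43 CPM). The part of these differences in the results below was not tested, and in bulk RNA a lower number of cells of a type and less RNA per cell cannot be told apart.

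Most mitoribosomal genes stood slightly below the control. Together they held 49299 counts in TECRLscko and 64883 in the control, or 0.291% and 0.337% of all counts. After scaling, their sum was 2978 CPM in TECRLscko against 3287 CPM in the control (ratio 0.906, exact 95% interval 0.895 to 0.917). The interval covers counting error only, as do all intervals below. Log2 ratios are TECRLscko over control, computed after adding 0.5 CPM to both, so that a negative value means a lower level in TECRLscko. All 77 members passed the filter of a mean of at least 1 CPM, and none was missing from either library. Of the 77, 64 had a log2 ratio below 0, against a background of 51.8% of the 12559 genes compared, and 13 had one above 0, against a background of 48.2%.

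The shift was small and narrow. The median log2 ratio of the members was -0.20, with quartiles of -0.28 and -0.06 and a range from -0.63 to 0.35, while the median of all genes compared was -0.02. Their log2 ratios had an SD across genes of 0.177, against 0.421 for the 8931 genes compared that lay in the same range of CPM. Only Mrps12 was at least 1.5-fold lower, where 3.88% of all genes compared were, and no member was at least 1.5-fold higher, where 9.24% of all genes were. At 2-fold no member was lower or higher, against backgrounds of 0.796% and 2.28%. The counting interval of the ratio lay wholly below 1 for 42 members, against a background of 23.8%. It lay wholly above 1 for 6 members, against a background of 24.1%. These backgrounds include genes at lower CPM than any member, whose intervals are wider, and shares at matched CPM were not computed. The remaining members could not be set apart from equal levels at this depth.

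**Figure D1:**
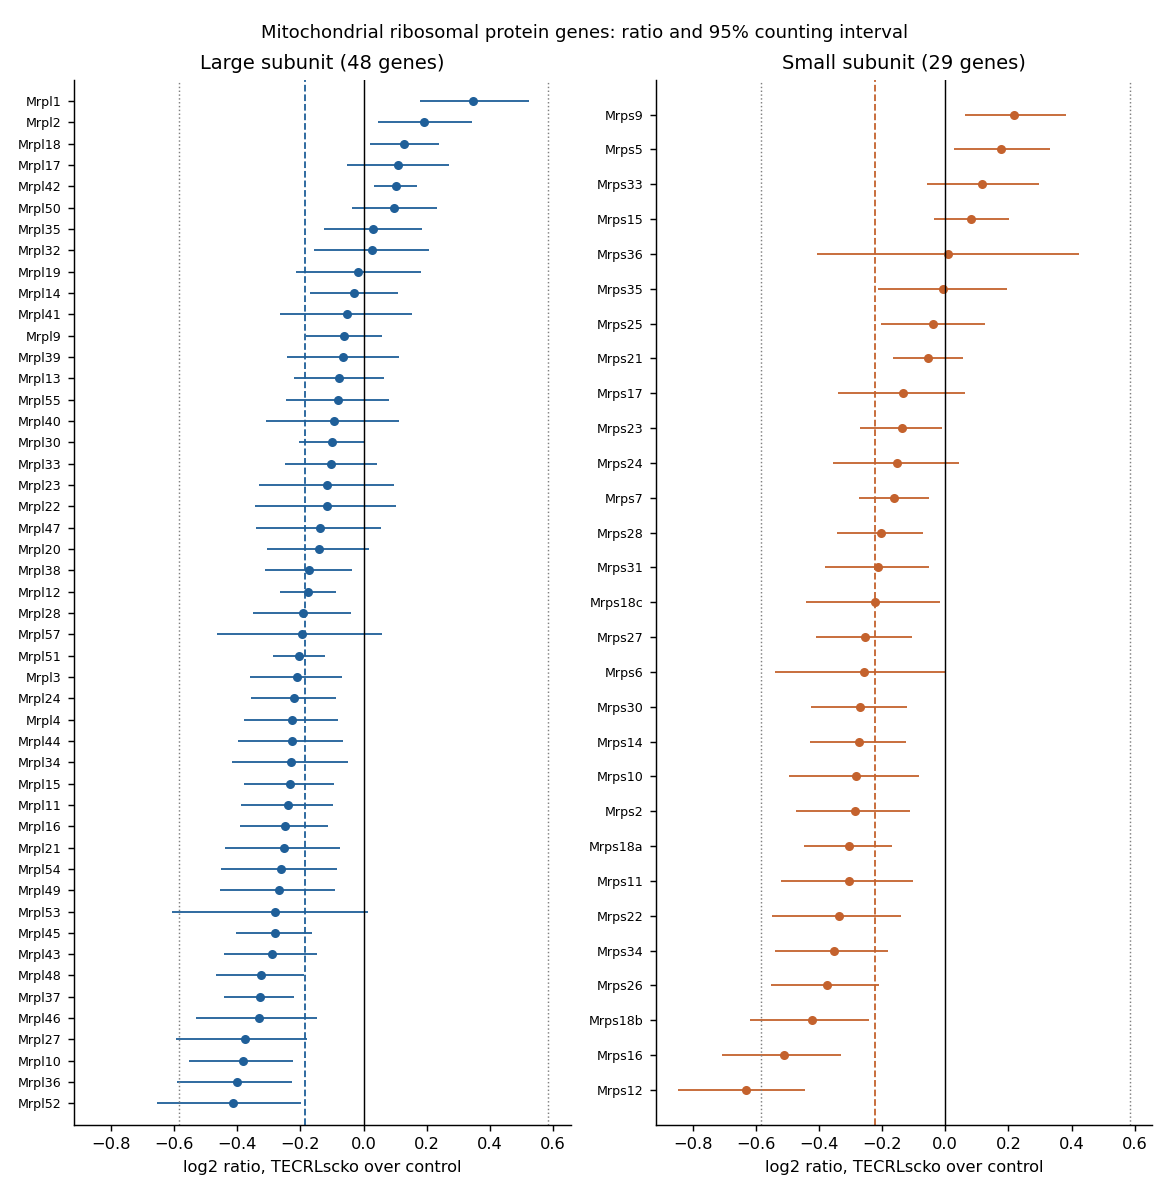
Log2 ratio of TECRLscko over control (x axis) for each of the 48 large subunit genes (left) and 29 small subunit genes (right), with the exact 95% counting interval as a bar. Dashed lines mark the subunit medians of -0.18 and -0.22 and dotted lines mark 1.5-fold. Mrps12 at -0.63 is the one point past a dotted line.

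Both subunits showed nearly the same shift. In the large subunit 40 of 48 genes were below the control, with a median log2 ratio of -0.18, and their sum was 2041 CPM in TECRLscko against 2230 CPM in the control (ratio 0.915, 95% interval 0.902 to 0.928). In the small subunit 24 of 29 genes were below, with a median of -0.22, and their sum was 937 CPM against 1057 CPM (ratio 0.886, 0.868 to 0.905). The intervals lay wholly below 1 for 24 large and 18 small subunit genes and wholly above 1 for 4 large and 2 small subunit genes. For each count from small subunit genes there were 2.18 counts from large subunit genes in TECRLscko and 2.11 in the control, a quotient of 1.03 (1.01 to 1.06). The large subunit median was above the small subunit median by 0.04 on the log2 scale, less than the interquartile range of either subunit, which was 0.191 for the large and 0.250 for the small one. Without members that overlap another counted gene model the difference was -0.000710, so the order of the medians turned round.

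Names and places differ for a few members. Mrps30 and Mrps18a sit in the large subunit in mammals despite their names, and Mrps36 is a component of the 2-oxoglutarate dehydrogenase complex of the citric acid cycle. Mrps30 had 607 counts in TECRLscko against 875 in the control, a log2 ratio of -0.27, and Mrps18a had 715 against 1055 counts, a log2 ratio of -0.30. Mrps36 had 92 counts in TECRLscko and 109 in the control, with a log2 ratio of 0.01 and a ratio interval of 0.754 to 1.34, the fewest counts of any member. Counting subunits by place, the large median was -0.19 over 50 genes and the small median was -0.22 over 26 genes.

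The 3 lowest log2 ratios were all of small subunit genes. Mrps12 (ENSMUSG00000045948, chr7:28739641-28741820, GRCm38, minus strand), the counterpart of the bacterial protein that guards decoding accuracy, had 314 counts (19.0 CPM) in TECRLscko and 585 counts (29.6 CPM) in the control. It was 1.56-fold lower with an interval of 1.36 to 1.80, a log2 ratio of -0.63. Mrps16 (ENSMUSG00000049960, chr14:20391231-20393555, minus strand), a conserved protein whose loss in people causes a mitochondrial disease, had 368 counts (22.2 CPM) against 629 counts (31.9 CPM), 1.43-fold lower (1.26 to 1.63). Both intervals lay clear of equal levels.

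Mammals carry 3 proteins related to bacterial S18, a protein of the small subunit. Mrps18b (chr17:35910379-35916389) had 381 counts in TECRLscko and 612 in the control and was 1.35-fold lower (1.18 to 1.54). Mrps18c had 320 counts against 447 and a log2 ratio of -0.22, and with Mrps18a at -0.30 all 3 relatives stood below the control. The models of all 3 overlap another counted gene, and the strand setting of the counting is not given in the sources used here, so their counts may hold reads of the neighbor.

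In the large subunit the lowest were Mrpl52, Mrpl36 and Mrpl10. Mrpl52 (chr14:54426909-54429756), which has no bacterial counterpart, had 258 counts in TECRLscko and 413 in the control and was 1.34-fold lower (1.15 to 1.57). Mrpl36 (chr13:73331009-73332175), a very small protein that binds zinc, came to 412 counts against 652, 1.33-fold lower (1.17 to 1.51). Mrpl10 (chr11:97041560-97049213) anchors the flexible stalk that recruits translation factors, and had 495 counts against 772, 1.31-fold lower (1.17 to 1.47). Its model overlaps the predicted gene Gm11574.

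The other stalk proteins were also below the control. Mrpl11, at the stalk base, had 650 counts in TECRLscko and 917 in the control, a log2 ratio of -0.24. Mrpl12, the repeated stalk protein, which in mammals is also reported to bind the mitochondrial RNA polymerase, had 1765 counts against 2377, a log2 ratio of -0.17. The stalk genes summed to 176 CPM in TECRLscko and 206 CPM in the control, a ratio of 0.853 (0.813 to 0.895). After a lowess correction for transcript length and GC content their median was -0.15, against -0.24 as measured, with 2 of 3 below 0.

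Around the exit of the peptide tunnel, where the chain meets the inner membrane, all 7 genes were below the control with a median log2 ratio of -0.14. Mrpl45, which binds the membrane, was the lowest of them at -0.28 with 949 counts in TECRLscko and 1378 in the control. Mrpl44 (-0.23) and Mrpl24 (-0.22) also had intervals wholly below 1. The intervals of Mrpl22, Mrpl23, Mrpl39 and Mrpl47, at -0.12, -0.11, -0.06 and -0.14, included 1. After the same correction the median of the 7 was -0.0099 and 5 of 7 were below 0. Across the whole ribosome, the 46 members with a bacterial counterpart had a median of -0.16 and the 30 without one a median of -0.26. Mrps36 was left aside. Of the relatives of bacterial S18, only Mrps18c was placed with the 46, and Mrps18a and Mrps18b with the 30. After the correction the medians were -0.047 and -0.089, and the difference was not tested.

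The highest members were led by Mrpl1 (ENSMUSG00000029486, chr5:96209493-96266727, plus strand), a protein of the mobile stalk beside the exit site for tRNA. Mrpl1 had 566 counts (34.2 CPM) in TECRLscko and 529 counts (26.8 CPM) in the control, and its ratio was 1.28 (1.13 to 1.44). Mrps9 (chr1:42851233-42905683), whose bacterial counterpart touches the tRNA that holds the chain, had 632 counts against 646, a ratio of 1.17 (1.04 to 1.304). Mrpl2 (chr17:46646229-46650139), which lies near the peptidyl transferase center, had 728 counts against 759, a ratio of 1.14 (1.03 to 1.27). Counts are raw, and the control library was the deeper one, so equal counts give a ratio above 1.

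Mrps5, the counterpart of a bacterial protein of decoding accuracy, had 688 counts in TECRLscko and 724 in the control, a ratio of 1.13 (1.02 to 1.26). Mrpl18, of the central protuberance, had 1311 counts against 1428, a ratio of 1.09 (1.01 to 1.18), and its model overlaps Tcp1. Mrps33 had 494 counts against 542, a ratio of 1.09 whose interval of 0.960 to 1.23 included 1. The highest and the lowest members therefore both came from each subunit, with 3 of the 6 lowest and 3 of the 6 highest named for the small one.

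The members differed far more from each other in level than between libraries. Per kilobase of the longest annotated transcript, Mrps21 was the highest, at 152 CPM per kb in TECRLscko and 157 in the control. Mrps17 was the lowest in TECRLscko, at 4.30 against 4.73. This order depends on the transcript chosen, which has 488 bp for Mrps21 and 5061 bp for Mrps17. Without division by length they stood at 74.0 CPM and 21.7 CPM in TECRLscko. The medians were 18.2 CPM per kb in TECRLscko and 23.0 in the control. Mrpl12 reached 81.0 CPM per kb against 91.5, and Mrps12 21.5 against 33.6. Across the 77 genes the log2 of the deposited FPKM in both libraries had a Pearson correlation of 0.991, a description of genes that share the same 2 libraries.

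**Figure D2:**
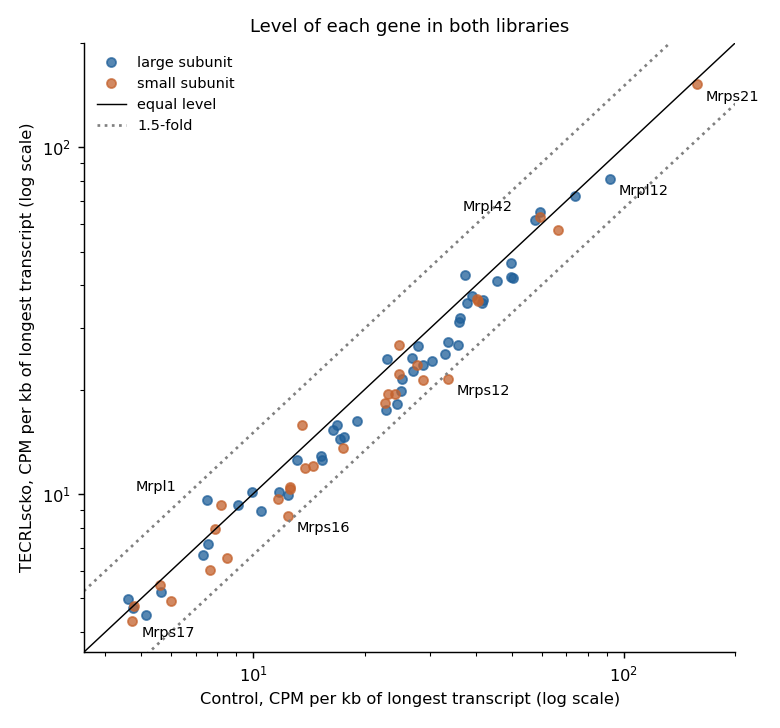
Level of each member as CPM per kilobase of its longest annotated transcript, TECRLscko (y axis) against control (x axis), both on log scales. Points are genes, the line marks equal levels and dotted lines 1.5-fold, and Mrps12, at 21.5 against 33.6, lies at the lower dotted line.

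In the deposited FPKM the order of levels was different. Its implied gene length equalled the sum of all distinct exons for 55 of the 77 members, within 1%. Mrpl42, a protein without a bacterial counterpart, led with 297 FPKM in TECRLscko and 290 FPKM in the control. Its implied length was 666 bp, where its longest transcript has 3277 bp and its merged exons 3682 bp, and the source of that length is not given in the sources used here. The next in the large subunit were Mrpl12, with 56.0 FPKM against 66.3, and Mrpl34, with 38.8 against 47.8. In the small subunit Mrps28 had 56.4 FPKM in TECRLscko and 68.2 in the control, Mrps16 38.4 against 57.6, and Mrps21 45.4 against 49.4. Ratios between libraries are untouched by the length, and Mrpl42, on 3349 against 3720 counts, had a ratio of 1.07 (1.02 to 1.12).

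Transcript length and base composition moved with the log2 ratio over all genes. Across all genes compared the log2 ratio had a Spearman correlation of 0.40 with transcript length (n = 12529) and -0.43 with GC content (n = 12524), as a description. Among the 77 members it was 0.12 with length and -0.30 with GC content. The members are short, with a median longest transcript of 1849 bp against 3422 bp for all genes compared. The 626 genes compared around a median length of 1817 bp had a median log2 ratio of -0.18, close to the members' -0.20.

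After lowess correction for length and GC content the members' median was -0.07, against 0.02 for all genes, with -0.06 for the large and -0.08 for the small subunit. Then 51 of 77 members were below 0, against a background of 46.9%, and with length alone also 51, against a background of 49.8%. No member was then at least 1.5-fold lower, against a background of 3.16%, or higher, against a background of 5.37%. The order of the members changed with the correction. The lowest were then Mrpl15 (-0.55) and Mrps30 (-0.53), and the highest Mrpl2 (0.47) and Mrps15 (0.34). The longest transcripts behind the correction of Mrpl15 (4600 bp, 40.0% GC) and Mrps30 (3803 bp, 40.4% GC) have 1 exon each. Whether these transcripts are the messages counted was not tested, so both corrected values hold only for the transcripts chosen. Mrps12 stood at -0.37 after the correction, Mrps16 at -0.42, Mrpl1 at 0.15 and Mrps9 at -0.0080.

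**Figure D3:**
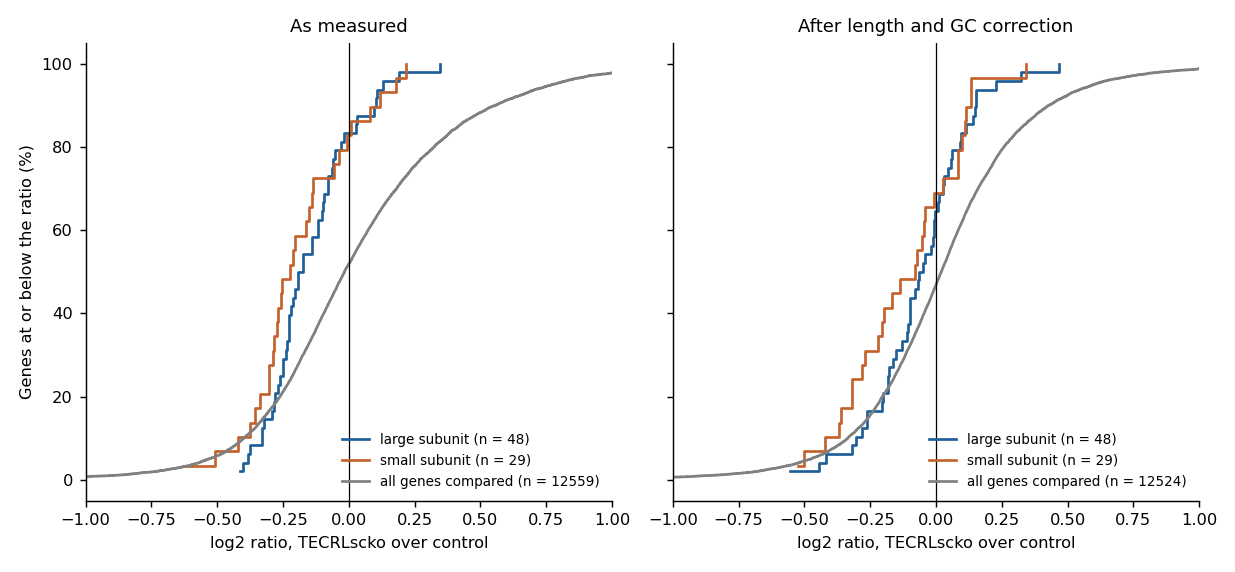
Share of genes (y axis, %) at or below each log2 ratio of TECRLscko over control (x axis) for the large subunit, the small subunit and all genes compared, as measured (left) and after correction for transcript length and GC content (right). The medians of the large and small subunit are -0.18 and -0.22 on the left and -0.06 and -0.08 on the right.

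The proteins of the cytosolic ribosome, a family of similar size, showed a shift of the same order. Of these, 59 of 71 genes were below the control, against a background of 51.8%, with a median log2 ratio of -0.17. Their sum was 6392 CPM in TECRLscko and 7076 CPM in the control, a ratio of 0.903 (0.896 to 0.911). Their SD across genes was 0.233, against 0.177 for the mitoribosomal genes, and their median after the correction was -0.01 against -0.07. The difference between the families was not tested.

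Messages of the mitochondrial genome, which the mitoribosome translates, stood on the other side. All 13 were above the control, with a median log2 ratio of 0.70 as measured and 0.47 after the correction, and 10 of them were at least 1.5-fold higher, against a background of 9.24%. After the correction 3 were, against a background of 5.37%, and these were mt-Nd4l (0.88), mt-Nd5 (0.69) and mt-Nd6 (0.69). The lowest ratios were those of the cytochrome c oxidase messages mt-Co3 (0.24) and mt-Co1 (0.33), and the highest those of the NADH dehydrogenase messages mt-Nd4l (1.04) and mt-Nd6 (1.09). The ribosomal RNAs of mitochondria were not analysed here. The messages that the ribosome translates summed to 236141 CPM in TECRLscko and 166156 CPM in the control, whereas the messages for its own proteins summed to 2978 CPM against 3287 CPM.

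Of 6 mitoribosomal subunits that carry other names, 5 were below the control, against a background of 51.8%. The median log2 ratio of the 6 was -0.24, or -0.11 after the correction. Chchd1 (chr14:20703027-20704417), a small subunit protein, had 751 counts in TECRLscko and 1362 in the control and was 1.52-fold lower (1.39 to 1.67), but at -0.48 after the correction it was under 1.5-fold. Ict1, the large subunit peptidyl-tRNA hydrolase now named Mrpl58, had 229 counts against 394 and was 1.44-fold lower (1.22 to 1.71). Aurkaip1 stood at -0.29, the small subunit GTPase Dap3 at -0.19, Gadd45gip1 at -0.13 and the pentatricopeptide protein Ptcd3 at 0.07.

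Genes that build and serve the ribosome were mixed. Of all genes compared, 51.8% were below 0 as measured and 46.9% after the correction. The lists here and in the next paragraph were not tested against these shares. Of 27 genes for assembly and rRNA modification past the filter, 21 were below the control with a median of -0.19, and after the correction 18 were, with a median of -0.083. The helicase Ddx28 stood at -0.57 and Ngrn, an assembly factor, at -0.48, while the GTPase Gtpbp10 stood at 0.48 and the rRNA methyltransferase Tfb1m at 0.16. Trmt61b, with 11 counts in TECRLscko and 22 in the control, was the one gene of that list under the filter. Of 11 translation factors 4 were below the control, with a median of 0.04, or -0.0098 after the correction. Mtif2, the initiation factor that brings the first tRNA, had 509 counts in TECRLscko and 400 in the control, a ratio of 1.52 (1.33 to 1.73), and its log2 ratio of 0.59 became 0.57 after the correction, just under 1.5-fold. Tufm, the elongation factor that delivers tRNA, had 1062 counts against 1857 and was 1.47-fold lower (1.36 to 1.58).

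The mitochondrial aminoacyl-tRNA synthetases, which charge the tRNAs, had 12 of 17 below the control and a median of -0.14, or -0.060 after the correction. Pars2, for proline, had 40 counts in TECRLscko and 85 in the control and was 1.78-fold lower (1.21 to 2.66), and Sars2, for serine, had 197 against 364 and was 1.55-fold lower (1.299 to 1.85). After the correction they stood at -0.58 and -0.34, both under 1.5-fold. Wars2, for tryptophan, stood at 0.31 and Rars2, for arginine, at 0.26. Of 9 genes for binding of mitochondrial mRNA and for membrane insertion or activation of translation, 6 were below the control with a median of -0.08, and after the correction 4 were, with a median of 0.0077. They ran from the insertase Cox18 at -0.28 and the RNA-binding protein Slirp at -0.22 to the protease Afg3l2 at 0.07 and Lrpprc, the partner of Slirp, at 0.18.

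**Figure D4:**
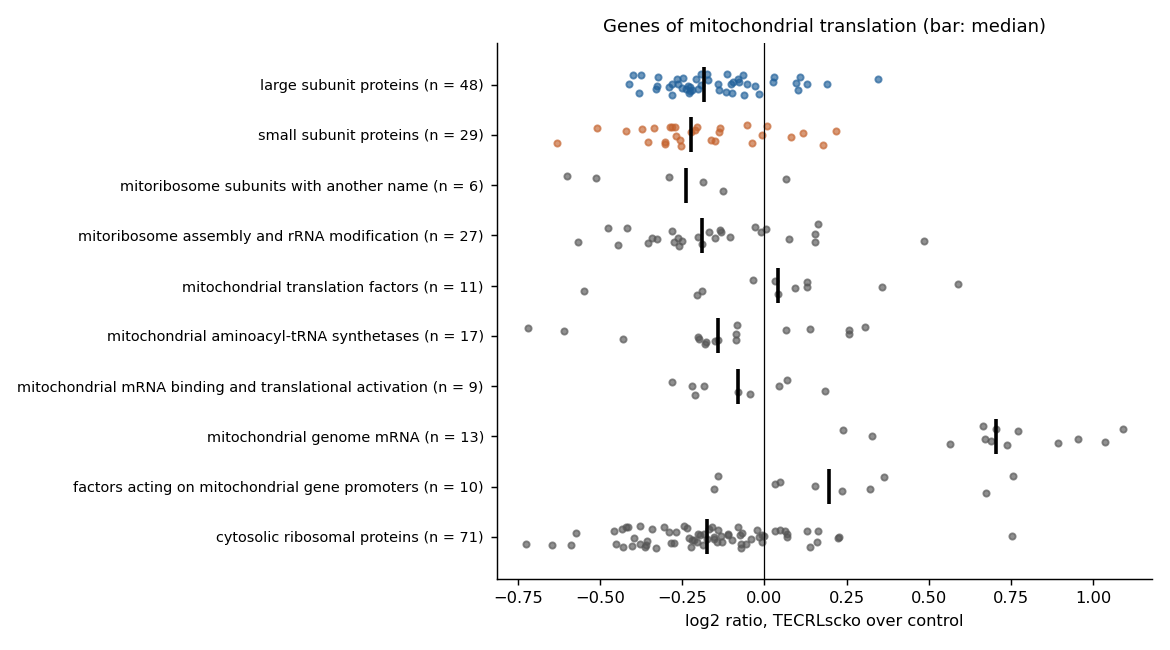
Log2 ratio of TECRLscko over control (x axis) for each gene past the filter, by group (rows, with the number of genes), with the group's median as a black bar. The large and small subunit medians are -0.18 and -0.22, that of the cytosolic ribosomal proteins is -0.17, and that of the mitochondrial genome messages is 0.70. Vertical scatter within a row has no meaning.

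Of 10 factors that act on promoters of mitochondrial genes, 8 were above the control, against a background of 48.2%, with a median of 0.20. After the correction the median was 0.056 and 7 were above 0. Gabpa, the DNA-binding chain of the ETS family factor GABP, had 694 counts in TECRLscko and 515 in the control, a ratio of 1.61 (1.43 to 1.80), and its log2 ratio of 0.67 became 0.38 after the correction, under 1.5-fold. The coactivator Ppargc1b had 235 counts against 162, a ratio of 1.73 (1.41 to 2.13), and stood at 0.76 as measured and 0.91 after the correction. The other GABP chain, Gabpb1, stood at -0.15, and Esrra, the estrogen-related receptor, at -0.14.

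Promoters of the members were searched for the motifs of such factors in RefSeq sequence (GRCm38.p6) from 250 bases before to 50 bases after the start. The table held 68 of the 77 members, and motifs and examples were chosen after the ratios had been seen. On either strand, the ETS core CCGGAAG was in 25 of 68 members (36.8%), against 19.9% of 9144 genes compared with a promoter and 8.86% of all promoters in the table. The YY1 core AAGATGGC was in 12 (17.6%) against 5.34% of the genes compared and 2.75% of all promoters. The NRF1 core GCGCATGC was in 8 (11.8%) against 6.04% and 2.71%, and TATAAA was in 5 (7.35%) against 8.97% and 13.6%. The ETS core ends and the YY1 core begins with the same letters, AAG, so that matches to both can overlap. A match is a description, not a bound site.

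Members with the ETS core had a median log2 ratio of -0.25, with 22 of 25 below the control, and the 43 without it a median of -0.14, with 33 below. After correction for length and GC content the medians were -0.18 and -0.04. Among all genes compared with a promoter the medians were -0.05 with the ETS core and -0.01 without, and the promoters of members had a median GC content of 60.3% with it and 57.7% without. No difference by motif was tested, and both member groups overlap widely, from -0.63 to 0.13 with the core and from -0.40 to 0.35 without it. Gaps of other sizes and signs went with the other motifs. The medians were -0.083 with and -0.21 without the NRF1 core, -0.26 and -0.19 with and without the YY1 core, and -0.25 and -0.19 with and without TATAAA. After the correction they were -0.075 and -0.065 for the NRF1 core, -0.085 and -0.056 for the YY1 core, and -0.32 and -0.052 for TATAAA, which only 5 members hold.

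The 4 lowest members, Mrps12, Mrps16, Mrps18b and Mrpl52, all had an ETS core in the searched window of at least 1 listed start, and the 3 highest, Mrpl1, Mrps9 and Mrpl2, had none of the ETS, YY1 and NRF1 letters, like 31 of the 68 members with a promoter. The next lowest members, Mrpl36 and Mrpl10, had no ETS core, and Mrpl18, Mrps33 and Mrpl17, all above the control, had one. These ranks, and those of the windows below, are by the log2 ratio as measured, and the order changes after the correction. Among members with a promoter, Mrps30 (-0.53) and Mrps14 (-0.50) were then lowest and had no ETS core. Mrps16 and Mrpl48 (both -0.42) came next and had one. Of the highest, Mrpl2 (0.47) and Mrps15 (0.34) had none and Mrpl18 (0.32) had one. The windows below show 3 of the lowest and then the 3 highest, from 220 bases before to 30 bases after the start, 5′ to 3′ on the gene's strand, with matches in capitals (CCGGAAG or its reverse complement CTTCCGG, and GCCATCTT, the reverse complement of AAGATGGC). They are chr7:28741792-28742041 (minus) for Mrps12, chr14:20393461-20393710 (minus) for Mrps16, chr14:54426689-54426938 (plus) for Mrpl52, chr5:96209895-96210144 (plus) for Mrpl1, chr1:42851013-42851262 (plus) for Mrps9 and chr17:46646001-46646250 (plus) for Mrpl2. Mrps16 and Mrpl2 have several starts in the table, and the first listed is shown. Mrps18b is left out, since its ETS core begins 43 bases after the first transcribed base, outside the window shown.
Mrps12: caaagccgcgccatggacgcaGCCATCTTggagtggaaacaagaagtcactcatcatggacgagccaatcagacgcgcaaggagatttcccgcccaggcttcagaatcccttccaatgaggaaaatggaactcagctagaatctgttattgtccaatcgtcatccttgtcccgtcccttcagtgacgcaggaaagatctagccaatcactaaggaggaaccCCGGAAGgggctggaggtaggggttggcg
Mrps16: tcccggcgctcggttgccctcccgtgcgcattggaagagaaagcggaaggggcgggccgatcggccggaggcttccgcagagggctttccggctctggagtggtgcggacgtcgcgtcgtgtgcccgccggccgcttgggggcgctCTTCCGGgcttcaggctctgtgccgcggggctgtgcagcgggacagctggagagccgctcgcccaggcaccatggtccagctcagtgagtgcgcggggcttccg
Mrpl52: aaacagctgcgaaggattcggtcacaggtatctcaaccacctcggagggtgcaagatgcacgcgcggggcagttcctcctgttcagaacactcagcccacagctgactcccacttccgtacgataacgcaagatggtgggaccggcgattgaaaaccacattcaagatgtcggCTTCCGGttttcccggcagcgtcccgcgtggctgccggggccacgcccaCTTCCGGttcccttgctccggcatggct
Mrpl1: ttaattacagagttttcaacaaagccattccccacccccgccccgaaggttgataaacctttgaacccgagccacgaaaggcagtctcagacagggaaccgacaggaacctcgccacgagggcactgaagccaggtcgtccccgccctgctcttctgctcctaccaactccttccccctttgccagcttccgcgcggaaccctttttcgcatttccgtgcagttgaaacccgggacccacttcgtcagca
Mrps9: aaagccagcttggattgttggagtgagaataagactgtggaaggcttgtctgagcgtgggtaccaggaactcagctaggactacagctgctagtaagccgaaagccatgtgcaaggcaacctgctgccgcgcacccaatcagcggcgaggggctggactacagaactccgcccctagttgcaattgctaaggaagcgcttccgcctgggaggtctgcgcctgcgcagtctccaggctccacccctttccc
Mrpl2: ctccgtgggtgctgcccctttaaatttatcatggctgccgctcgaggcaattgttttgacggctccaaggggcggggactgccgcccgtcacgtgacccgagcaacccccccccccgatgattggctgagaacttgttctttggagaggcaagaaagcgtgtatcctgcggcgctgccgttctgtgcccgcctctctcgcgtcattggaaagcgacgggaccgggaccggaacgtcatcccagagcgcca
In Mrps12 the ETS core begins 1 base after the first transcribed base, and the YY1 core begins 199 bases before that first base. Mrps16 has an ETS core 74 bases before the start. Another begins 24 bases after the first transcribed base and runs past the end of the window shown. Mrpl52 has one 47 bases before the start and another just after it. The start of Mrpl1 in RefSeq lies inside the deposited gene model, downstream of that model's first base.

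Many members share such a region with a neighbor transcribed the other way. Of the 77 members, 33 (42.9%) have a protein-coding gene on the opposite strand that starts within 1000 bp, against 15.9% of 11957 protein-coding genes compared. For 27 pairs both genes passed the filter, and in 17 of them both were below the control. In 5 pairs the member was below and the neighbor above, in 4 the member above and the neighbor below, and in 1 both were above. The neighbors had a median log2 ratio of -0.18, and 64 of all 77 members were below 0, against a background of 51.8%. With both sides mostly below 0, the count of 17 is no measure of a link within pairs, which was not tested. Across the 27 pairs the log2 ratios had a Pearson correlation of 0.40 and a Spearman correlation of 0.50, as a description of genes in the same libraries. In 9 of the pairs the gene models overlap, so that reads may be shared.

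The member with the lowest log2 ratio as measured stood in such a pair. Mrps12 and Sars2, the mitochondrial seryl-tRNA synthetase, start 172 bp apart on opposite strands of chromosome 7, with models that do not overlap, and had log2 ratios of -0.63 and -0.61, or -0.37 and -0.34 after the correction. In TECRLscko they had 314 and 197 counts, and in the control 585 and 364. Mrps18b and Ppp1r10, a regulator of protein phosphatase, stood at -0.42 and -0.56. Mrpl46 and Mrps11, a large and a small subunit gene that form a pair with overlapping models, stood at -0.33 and -0.30.

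In other pairs the log2 ratios differed. Mrps18c stood at -0.22 and its neighbor Helq, a DNA helicase, at 0.33 on 76 counts in TECRLscko against 70 in the control. Mrpl36 stood at -0.40 and Ndufs6, a subunit of complex I, at -0.02. Mrpl2, at 0.19, faces the kinesin light chain gene Klc4 at -0.14. These pairs were chosen after their values had been seen.

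**Figure D5:**
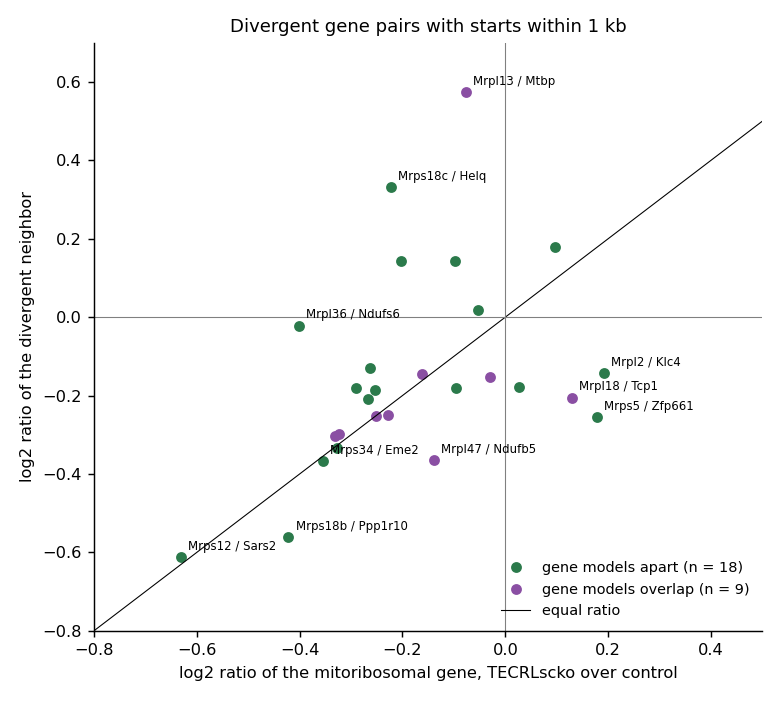
Log2 ratio of TECRLscko over control for the member (x axis) and its divergent neighbor (y axis) in 27 pairs with starts within 1000 bp, in 18 with gene models apart and 9 with overlapping models. The line marks equal ratios. In 17 pairs both genes lie below 0, in 5 only the member, in 4 only the neighbor and in 1 neither. Mrps12 with Sars2 is at the lower left at -0.63 and -0.61.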

How the data were processed

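Total RNA of gastrocnemius muscle was sequenced as 1 TECRLscko and 1 TECRLflox/flox library. The submitters' processing notes name the build GRCm38 and the tools CASAVA, StringTie 1.3.0 and HISAT2 2.0.4, without the role of each. Which program counted reads, whether it used strand, and which annotation it used is not given in the sources used here. Per the file headers, the authors deposited a raw count per gene and library and an FPKM value. The deposited counts are whole numbers without normalization. The deposited FPKM values are the same counts divided by a gene length and the library total.

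From the counts, TMM factors of 0.977 (TECRLscko) and 1.02 (control) were computed (edgeR 4.0.16, R 4.3.3), then CPM, and log2 ratios with a pseudocount of 0.5 CPM for genes whose mean reached 1 CPM. Ratios and folds of single genes and sums are plain CPM ratios. Their 95% intervals are exact (Clopper-Pearson), given the counts summed over both libraries, and cover counting error only, since reads without molecular identifiers may be copies of one molecule. The floor of 3 counts is 0.181 CPM in TECRLscko and 0.152 CPM in the control. Lowess corrections (span 0.3, statsmodels 0.14.6) used the length and GC content of the longest transcript in GENCODE M21, coding or not, over all genes compared. Coordinates are the deposited ones, and 58 of the 77 members have the same in GENCODE. The models of 30 members share at least 1 bp with another counted model. A check on simulated counts with 200 genes changed 2-fold was also run, and no result here rests on it.

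Members and gene lists were chosen with earlier results of these data known. Members named are the 6 highest and 6 lowest log2 ratios, the 3 highest of each subunit by FPKM, those whose name and place differ, the relatives of bacterial S18, and the stalk and tunnel exit proteins. From each list, the rule takes genes at least 1.5-fold from the control, otherwise the 2 highest and 2 lowest. The subunits with other names are all given. Of the mitochondrial messages, those at the ends of the range and those past 1.5-fold after the correction are given, and Tufm, Wars2, Rars2, Gabpb1 and Esrra were added after their values were seen. Mrm2, Mrm3, Rcc1l and Mrpl58 were matched by gene ID under older symbols. Alternatives were total-count scaling with and without the mitochondrial genome, size factors of DESeq2 1.42.0, the FPKM values as deposited or centred on their median, a pseudocount of 0.1 or 1 CPM, a filter at 5 CPM or none, a 2-fold rule, both corrections, leaving out overlapping models, and subunits by place.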

Additional observations from a re-analysis of the deposited data

How the results depend on the processing

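The members' median log2 ratio stayed below 0 under every alternative run, from -0.27 with total-count scaling to -0.067 with the length and GC correction. It was -0.26 with FPKM, -0.16 with total counts without the mitochondrial genome, -0.16 with median-centred FPKM, -0.10 with the length correction and -0.17 without overlapping models. Total-count scaling shifts every log2 ratio by -0.07 before the pseudocount. Over all 77 members, the number below 0 lay between 51 (either correction) and 67 (total-count scaling or FPKM). Without overlapping models it was 35 of 47. With median-centred FPKM it was 60, so the count moved with the scaling. The share of all genes below 0 is not given for these scalings, so the rise to 67 cannot be set against a background. The number at least 1.5-fold lower was 0 with median-centred FPKM, with either correction and at 2-fold, and 1 under the other alternatives, and 0 members were 1.5-fold higher under any. The large minus small median was -0.000710 without overlapping models. The large to small ratio of sums, 1.03 in the main run, was 1.08 with FPKM, median-centred or not. It was 1.015 without overlapping models and 1.021 with subunits by place. The FPKM sums include Mrpl42, at 297 FPKM in TECRLscko and 290 FPKM in the control. DESeq2 size factors, other pseudocounts and other filters left these values on the same side. With 1 library per group no replicate could be left out. No paired analysis was possible because the design holds a single library of either genotype. Depth limits single genes: Mrps36, on 92 and 109 counts, could lie anywhere from 0.754 to 1.34 times the control.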
